A study of Mus musculus with 23 samples.

Results

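XY and XX hippocampi from mice with testes were compared gene by gene. The 12 libraries, of 23 in the study, were those whose labels give testes as the gonad, 6 with XY sex chromosomes (XYM) and 6 with XX (XXM), each from a different animal. All came from the FCG mouse model on a C57Bl/6J background, in which the testis-determining gene Sry is missing from the Y chromosome and sits on an autosome instead. XYM mice therefore carried an X, a Y lacking Sry and the autosomal Sry, and XXM mice carried a pair of X chromosomes and the same autosomal Sry. The remaining 11 libraries came from mice without that transgene, which have ovaries, either XX (XXF, n = 5) or XY with the Y lacking Sry (XYF, n = 6). The stock was revived from frozen embryos, pups were caged by the look of the genitalia, and tissue was taken at about 12 months. The labels name no gonadectomy or hormone treatment. By that rule both groups with testes would be caged as males. Litter, cage and hormone levels were not used here.

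The comparison asks which hippocampal genes differ with the sex chromosomes when the gonad is the same. A few groups of genes can differ directly. In XX cells 1 X chromosome is silenced by the RNA Xist, which only the silenced X makes. Some X-linked genes escape this silencing, several of them with a sister gene on the Y. Published work on FCG mice of this background has described a piece of the distal X chromosome copied onto their Y chromosome, and the genes in that region are treated as a group below. Gene dose was not measured here, and its part in these values was not tested.

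Library totals over 13766 genes ran from 21143397 to 32393132 counts in XXM and from 15921603 to 32618568 in XYM, and rank correlations between libraries of a group lay between 0.988 and 0.996. Levels are in CPM, a gene's count relative to its scaled library total, and differences as log2 fold changes, XYM over XXM, with an approximate standard error (SE). A gene was called at an adjusted p under 0.05, and all tests were 2-sided. Markers of the hippocampus were present in every library, with the 20 genes of hippocampal neurons and subfields summing to 9866 to 11375 CPM in XXM and 9723 to 11204 in XYM. The libraries did differ in RNA of the choroid plexus, a tissue inside the brain ventricles, beside the hippocampus. The score of that tissue (mean log2 CPM of 14 marker genes) lay between 5.48 and 6.25 in 4 of 6 XXM libraries and was 5.98 in XYM replicate 1, while the other XXM libraries lay at 2.47 and 2.58 and the other XYM libraries between 1.61 and 2.82. Ttr, the transthyretin gene that marks this tissue, reached 2220 CPM in XXM and 2386 CPM in XYM against lowest values of 82.4 and 19.1. High choroid plexus RNA was thus more frequent among the XX libraries, and 1 XXF and 1 XYF library were as rich. The fit was therefore repeated without these 7 libraries, a choice made after seeing the data. That leaves 2 XXM and 5 XYM libraries, and the counts of called genes from it are given below.

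The sex chromosomes accounted for 14 of the 16 genes called. By the quasi-likelihood test of edgeR, adjusted by Benjamini and Hochberg's method, 16 of 13766 genes (0.116%) differed between XYM and XXM, 12 higher (0.0872%) and 4 lower (0.0291%) in XYM. Of the 486 X-linked genes 10 were called (2.06%), 6 higher and 4 lower, and of the 5 Y-linked records 4 were called. Only 2 of 13275 autosomal genes were called (0.0151%), Mylk and Cnn2, both higher in XYM. At an unadjusted p under 0.05 stood 728 genes (5.29%) where 688 would be expected by chance, and 683 autosomal genes (5.15%) where 664 would be. The median log2 fold change over all genes was -0.00. In 51 genes (0.370%) the 6 libraries of XYM and the 6 of XXM did not overlap, among them 35 autosomal genes (0.264%). Of the 924 ways to pick 6 of 12 libraries, 2 give such a split for a gene, a share of 0.00216. The autosomal share was thus near that of chance. Without the 7 libraries rich in choroid plexus RNA 10 genes were called, 0 of them autosomal and 6 X-linked, all among the 16. Leaving out any single XYM or XXM library gave 15 to 17 calls.

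**Figure D1:**
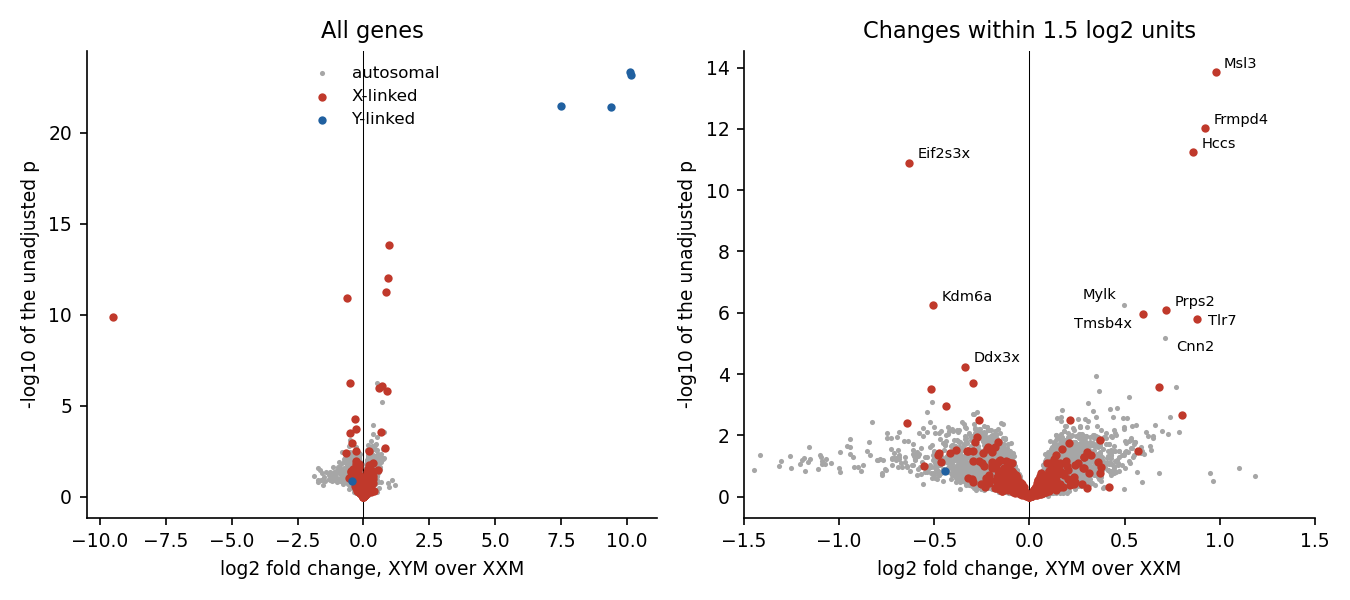
Each point is 1 gene, with its log2 fold change (XYM over XXM) on the x axis and -log10 of its unadjusted p on the y axis, for all genes on the left and for changes within 1.5 log2 units on the right. The 4 Y-linked genes and Xist stand far out, 6 genes of the distal X rise to the right, and Mylk and Cnn2 are the autosomal genes that passed.

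The libraries matched their labels. Xist stood at 936 to 1439 CPM in XXM, with a median of 1306, and at 0.938 to 2.86 CPM in XYM, with a median of 1.29 (log2 fold change -9.52 ± 0.92 SE, edgeR adjusted p = 1.95e-07). Its exons overlap those of the antisense gene Tsix, and no source used here says whether reads were counted by strand, which leaves its level uncertain. Transcripts of the Y were present in every XYM library. Ddx3y, an RNA helicase, lay at 54.8 to 73.2 CPM in XYM with a median of 60.8, and Eif2s3y, a translation initiation factor subunit, at 41.6 to 57.1 with a median of 50.9. The histone demethylase Kdm5d lay at 28.4 to 39.5 CPM with a median of 33.6, and Uty at 16.2 to 23.7 with a median of 19.98. In XXM the same genes reached at most 0.437, 0.0730, 0.0672 and 0.174 CPM, from counts of at most 13, 2, 2 and 4.79. Erdr1, whose record on the Y has a near-identical copy on the X, was found in both groups, at 14.9 to 37.4 CPM in XXM and 8.07 to 42.8 in XYM (edgeR adjusted p = 0.945).

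Of the X-linked genes known to escape silencing, 3 of the 6 in the table were lower in XYM (background for lower calls 0.0291%), and none was higher. Eif2s3x, which encodes the gamma subunit of the initiation factor eIF2, stood at 207 to 251 CPM in XXM (median 217) and at 132 to 158 in XYM (median 142). Every XYM library lay below every XXM library. It fell by 0.63 ± 0.05 SE on the log2 scale (95% interval -0.75 to -0.52, edgeR adjusted p = 2.17e-08). Kdm6a, a histone demethylase, stood at 51.6 to 58.9 CPM in XXM (median 57.9) and 35.4 to 43.5 in XYM (median 40.1), again without overlap. Its log2 fold change was -0.51 ± 0.08 SE (95% interval -0.66 to -0.35, edgeR adjusted p = 0.000722). Without the libraries rich in choroid plexus RNA, Eif2s3x was still called at -0.59, while Kdm6a lay at -0.41 and was not (adjusted p = 0.9998).

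Ddx3x, an X-linked RNA helicase, passed narrowly. It stood at 366 to 446 CPM in XXM (median 393) and 271 to 345 in XYM (median 319), without overlap. Its log2 fold change was -0.34 ± 0.07 SE (95% interval -0.48 to -0.19, edgeR adjusted p = 0.0494), and the call was lost when any of 10 of the 12 libraries was left out, with values from -0.37 to -0.30. Kdm5c, a histone demethylase, overlapped between the groups, with 72.5 to 99.0 CPM in XXM (median 88.3) and 60.8 to 75.9 in XYM (median 71.5). Its change of -0.30 ± 0.07 SE did not pass by edgeR (adjusted p = 0.146), but passed when XXM replicate 6 was left out (adjusted p = 0.0225) and by DESeq2 (adjusted p = 0.0386). For 5530601H04Rik the change was -0.28 (adjusted p = 0.921) and for Mid1, part of which lies in the pseudoautosomal region so that its count is uncertain, it was 0.02 (adjusted p = 0.998). The list also names Pbdc1, Jpx and Ftx, not analysed here.

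X-linked genes with a Y partner outside the escape list gave no call. Usp9x, a deubiquitinase, changed by -0.09, the transcription factor gene Zfx by 0.01, the ubiquitin-activating enzyme gene Uba1 by 0.01 and the RNA-binding protein gene Rbmx by 0.17, with edgeR adjusted p between 0.930 and 0.999. A further list of genes reported to escape in some mouse tissues had 7 of its 9 members in the table and 0 calls. The largest of its values was that of Bgn, which encodes the matrix proteoglycan biglycan, at 10.9 to 19.3 CPM in XXM (median 15.7) and 7.36 to 12.8 in XYM (median 9.95), a log2 fold change of -0.64 ± 0.20 SE (adjusted p = 0.921).

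The Y-linked partner adds to the pool of related transcripts in XYM, so X and Y levels were also summed per kilobase of transcript. With the longest RefSeq messenger RNA as length, Eif2s3x and Eif2s3y together gave 61.1 ± 4.63 CPM per kb in XXM and 66.3 ± 4.26 in XYM (SD, n = 6 each), of which the Y gene was 40.6%. The log2 difference of that sum was 0.12 (exact permutation test over 924 assignments, p adjusted over 4 pairs = 0.0952). Kdm6a with Uty gave 0.14 (exact permutation test, adjusted p = 0.0346), Kdm5c with Kdm5d 0.17 (0.0952) and Ddx3x with Ddx3y -0.08 (0.299). The sums depended on the length used. With merged exons as length, an alternative added after seeing the data, they were -0.24 for the Eif2s3 pair (exact permutation test, adjusted p = 0.00866), 0.00 for Kdm6a with Uty (0.955), -0.00 for Kdm5c with Kdm5d (0.955) and -0.08 for the Ddx3 pair (0.580). The sign or the call of the sum thus changed with the length for each pair except Ddx3, which passed under neither.

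The genes that rose most on the X lay together near its distal end. All 7 members of the distal block in the table were higher in XYM, and 6 of the 7 were called and did not overlap between groups (background for higher calls 0.0872%, for higher without overlap 0.225%). The median of the 7 was 0.86, where a doubling would be 1 on this scale. They run from 167207094 to 169320343 on the X chromosome (mm10), a span of 2.11 Mb with no further gene of the table inside it. Tlr8 and Amelx of the list were not analysed here.

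Msl3, a chromodomain protein of the histone-acetylating MSL complex, rose most. It stood at 20.7 to 24.6 CPM in XXM (median 22.7) and 41.1 to 48.9 in XYM (median 45.0), a log2 fold change of 0.98 ± 0.06 SE (95% interval 0.85 to 1.11, edgeR adjusted p = 3.83e-11). Frmpd4, a scaffold protein of the postsynapse, stood at 126 to 175 CPM in XXM (median 152) and 273 to 323 in XYM (median 278). Its rise of 0.92 ± 0.07 SE (95% interval 0.78 to 1.07, edgeR adjusted p = 2.23e-09) was close in size to that of Msl3. Hccs, the mitochondrial enzyme that attaches haem to cytochrome c, stood at 20.6 to 24.5 CPM in XXM (median 22.3) and 38.3 to 45.1 in XYM (median 40.3), a rise of 0.86 ± 0.07 SE (95% interval 0.71 to 1.01, edgeR adjusted p = 1.12e-08). The exons of Hccs overlap those of Arhgap6 on the opposite strand, so reads of these neighbours may not be told apart.

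The other members had wider intervals. Tlr7, the endosomal receptor for single-stranded RNA, was low in both groups, at 3.42 to 5.35 CPM in XXM (median 4.18) and 6.39 to 10.7 in XYM (median 7.22), a rise of 0.88 ± 0.14 SE (95% interval 0.59 to 1.18, edgeR adjusted p = 0.00153). Prps2, a synthetase of the precursor of nucleotides, stood at 35.97 to 63.4 CPM in XXM (median 44.8) and 66.1 to 98.1 in XYM (median 70.9), a rise of 0.72 ± 0.11 SE (95% interval 0.49 to 0.95, edgeR adjusted p = 0.000933). Tmsb4x, thymosin beta 4, which binds actin monomers, stood at 528 to 666 CPM in XXM (median 576) and 683 to 1104 in XYM (median 881). Its rise of 0.60 ± 0.09 SE (95% interval 0.40 to 0.79, edgeR adjusted p = 0.00112) had an interval that ended below a doubling in this fit, as did that of Prps2. Arhgap6, a GTPase-activating protein, overlapped between groups, at 4.49 to 10.7 CPM in XXM (median 8.59) and 9.24 to 21.9 in XYM (median 11.3), with a log2 fold change of 0.80 ± 0.24 SE (adjusted p = 0.865). Without the 7 libraries rich in choroid plexus RNA the block's median was 1.04. Msl3, Frmpd4, Hccs and Prps2 were still called there, Prps2 at 0.93, while Tlr7 at 1.15 (adjusted p = 0.0545) and Tmsb4x at 0.50 (adjusted p = 0.9998) were not. With the choroid plexus score as covariate Prps2 rose by 0.93 and Tmsb4x by 0.53 (0.98 and 0.54 in the fit of the 12 libraries alone).

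**Figure D2:**
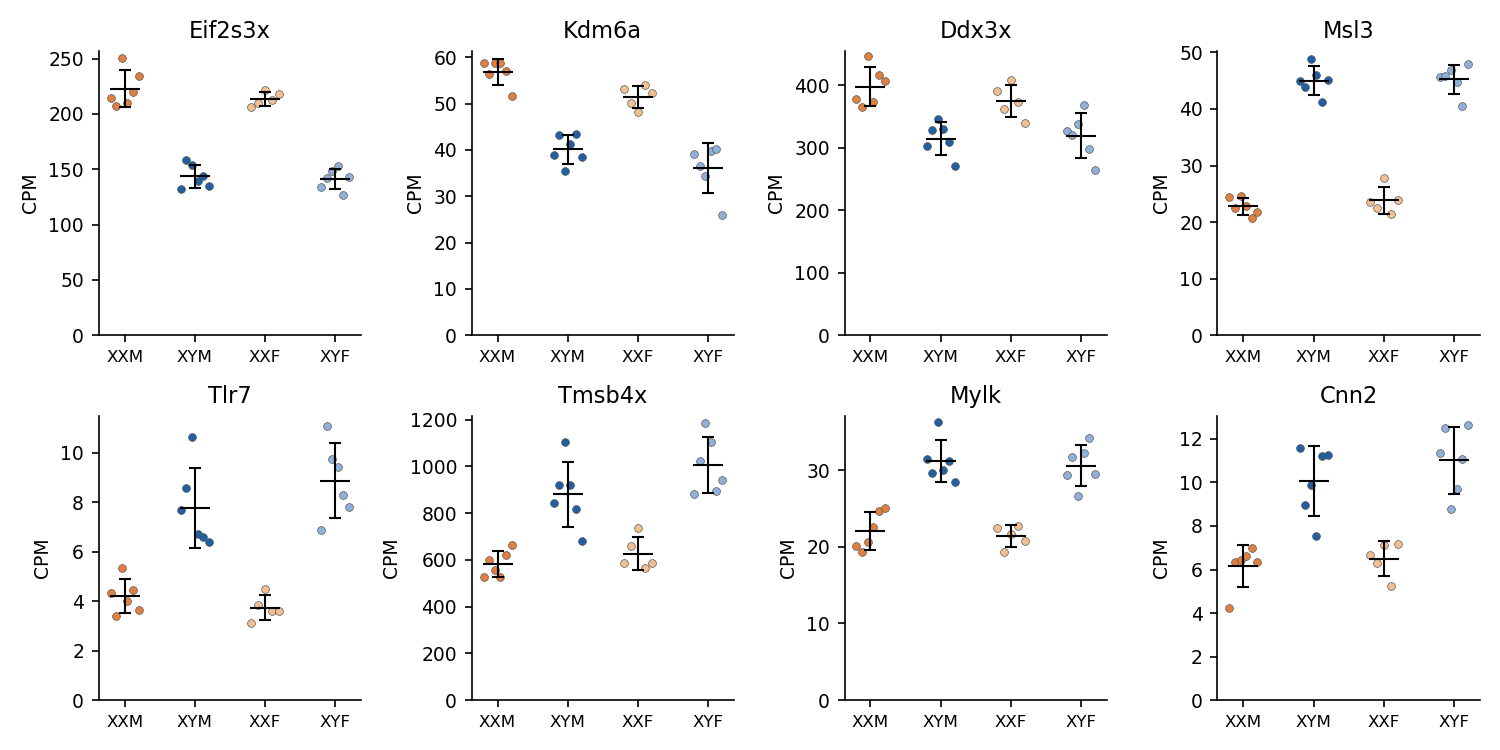
Levels in CPM (y axes, from 0) of 8 genes in the 4 groups, with 1 point per library and the mean ± SD as bars. In XXM and XYM the points of each of these genes fall into separate ranges, with Eif2s3x, Kdm6a and Ddx3x lower and Msl3, Tlr7, Tmsb4x, Mylk and Cnn2 higher in XYM, and XXF and XYF are shown beside them.

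The genes beside the block gave no call. The 11 flanking genes had 0 calls, a median of -0.01 and values from -0.23 for Egfl6 to 0.24 for Fancb, a gene of the DNA crosslink repair pathway. Egfl6, the nearest gene of the table before the block, ended 0.621 Mb from it, and Mid1 at 0.02 and G530011O06Rik at -0.05 were the only genes of the table beyond it. Among the 472 X-linked genes outside Xist, the escape list and the block, 0 were called by edgeR, 28 had an unadjusted p under 0.05, and the median was -0.01 (range -0.64 to 0.68). With sample quality weights in limma, Flna and Gpr34 of these were called as well, Flna also with the choroid plexus score as covariate in edgeR, and Gpr34 also by DESeq2 and by edgeR without XYM replicate 3. Flna, an actin crosslinker, stood at 67.9 to 104.5 CPM in XXM (median 100.8) and 109.3 to 180.1 in XYM (median 160.9), a change of 0.68 ± 0.16 SE without overlap that did not pass by edgeR (adjusted p = 0.185). Gpr34, a receptor of microglia, stood at 13.9 to 20.4 CPM in XXM (median 15.01) and 8.26 to 14.3 in XYM (median 11.4), a change of -0.52 ± 0.12 SE (adjusted p = 0.208).

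**Figure D3:**
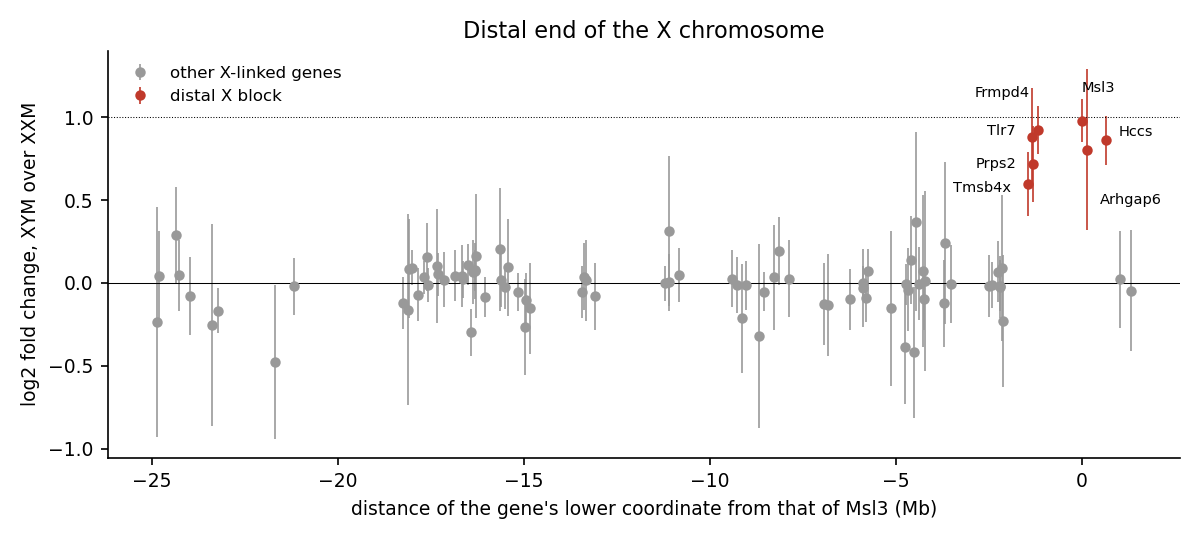
Log2 fold change (XYM over XXM, y axis, with 95% intervals) of the X-linked genes of the distal end of the chromosome against the distance of each gene from Msl3 in Mb (x axis). The 7 genes of the block sit between 0.60 and 0.98, and those on both sides scatter around 0.

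No gene of the Tlr7 signalling list passed. Of 16 measured members (adaptors such as Myd88, kinases such as Irak4 and transcription factors such as Irf5) 0 were called, 12 were higher and 4 lower at any size, and the median was 0.02. Myd88, the adaptor that binds the receptor, stood at 5.78 to 7.55 CPM in XXM (median 7.03) and 4.67 to 6.18 in XYM (median 5.60), a change of -0.33 ± 0.13 SE (edgeR adjusted p = 0.921). Irf5 had a change of 0.25 ± 0.11 SE (adjusted p = 0.930).

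Mylk and Cnn2 were the autosomal genes that rose. Mylk, the kinase that phosphorylates myosin light chains (gene 107589, chromosome 16, 34784950 to 35002434), stood at 19.3 to 25.1 CPM in XXM (median 21.6) and 28.4 to 36.3 in XYM (median 30.6), with every XYM library above every XXM library. Its log2 fold change was 0.50 ± 0.08 SE (95% interval 0.34 to 0.66, edgeR adjusted p = 0.000722). Antisense genes E130310I04Rik and Gm21691 overlap its exons, so part of its count could be theirs. Cnn2, a calponin that binds actin filaments (gene 12798, chromosome 10, 79988600 to 79995400), stood at 4.24 to 6.99 CPM in XXM (median 6.41) and 7.54 to 11.6 in XYM (median 10.5), also without overlap. Its log2 fold change was 0.71 ± 0.13 SE (95% interval 0.45 to 0.98, edgeR adjusted p = 0.00614). Both calls held when any of the 12 libraries was left out. Neither passed without the 7 libraries rich in choroid plexus RNA, though the sizes were alike, 0.50 for Mylk (adjusted p = 0.331) and 0.64 for Cnn2 (adjusted p = 0.9998). When the choroid plexus score entered the fit of all 23 libraries as a covariate, both were called, at 0.54 and 0.74, and in the fit of the 12 libraries alone with that covariate Mylk was called at 0.51 and Cnn2 was not, at 0.77 (adjusted p = 0.0563).

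The promoters of Mylk and Cnn2 are shown because their transcripts rose together and both genes belong to the actin cytoskeleton, many of whose genes are bound by serum response factor (SRF) at a motif named the CArG box. Each window covers 250 bases before and 50 after the RefSeq start (GRCm38.p6, the assembly that mm10 stands for), and capitals mark a match to the CArG box, which reads the same on both strands.
Mylk, chr16:34784700-34784999, + strand: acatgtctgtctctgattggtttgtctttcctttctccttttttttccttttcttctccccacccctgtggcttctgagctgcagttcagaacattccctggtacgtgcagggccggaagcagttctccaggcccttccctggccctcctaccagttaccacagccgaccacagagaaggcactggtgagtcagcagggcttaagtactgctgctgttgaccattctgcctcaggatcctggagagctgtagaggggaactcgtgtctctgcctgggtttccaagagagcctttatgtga
Cnn2, chr10:79988350-79988649, + strand: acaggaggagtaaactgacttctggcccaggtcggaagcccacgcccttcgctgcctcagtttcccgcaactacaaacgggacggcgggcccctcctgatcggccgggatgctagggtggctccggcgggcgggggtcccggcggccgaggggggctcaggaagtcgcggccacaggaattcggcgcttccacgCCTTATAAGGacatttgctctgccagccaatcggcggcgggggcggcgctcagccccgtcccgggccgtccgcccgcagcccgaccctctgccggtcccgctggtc
The Cnn2 window holds 1 match, starting 56 bases before the start, and that of Mylk holds 0. Only 1 window was searched per gene, so any other start of these genes was not covered. Of 32851 windows of the same length 535 (1.63%) hold such a match. No binding was measured.

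Other genes of the actin cytoskeleton and SRF target list gave no call by edgeR without a covariate. Of its 30 members 2 were called (Mylk and Cnn2, which were put on the list because of earlier results), where 0.116% of all genes were. With these 2 counted, 6 members had an unadjusted p under 0.05 by edgeR (5.29% of all genes) and 3 were higher without overlap (0.225%). The third was Flna at 0.68 (edgeR adjusted p = 0.185), called with the choroid plexus score as covariate and with sample quality weights in limma. At any size 17 were higher and 13 lower, where 48.9% of all genes were higher, and the median was 0.06. Actb, an actin gene used as a standard, stood at 703.6 to 860 CPM in XXM (median 718.8) and 821 to 880 in XYM (median 846), a change of 0.17 ± 0.08 SE (edgeR adjusted p = 0.930). Actg1 had a change of 0.14 (adjusted p = 0.921) and Srf, the transcription factor itself, one of 0.16 (adjusted p = 0.930). The summed level of the 30 genes was 4186 to 4688 CPM in XXM and 4665 to 4924 in XYM.

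The autosomal genes next in order of p did not pass by edgeR. Tm7sf2, a sterol reductase of cholesterol synthesis, stood at 10.6 to 12.7 CPM in XXM (median 12.3) and 14.4 to 16.7 in XYM (median 14.9), without overlap. Its change of 0.35 ± 0.08 SE had an adjusted p of 0.0913, and it passed by DESeq2 and by limma's voom. The exons of Tm7sf2 overlap those of Vps51 on the same strand, so its value is uncertain. Taf1d, a subunit of a factor of RNA polymerase I that hosts several small nucleolar RNAs, stood at 9.72 to 13.04 CPM in XXM (median 12.1) and 13.2 to 16.8 in XYM (median 15.6), a change of 0.37 ± 0.09 SE (adjusted p = 0.216). It was called by DESeq2 and by limma with sample quality weights. Other genes on the higher side were Tgfb1i1, a focal adhesion adaptor (0.53, adjusted p = 0.328), Net1, a guanine nucleotide exchange factor (0.31, adjusted p = 0.490), Col4a1, a basement membrane collagen (0.43, adjusted p = 0.686), and Ewsr1, an RNA-binding protein (0.17, adjusted p = 0.704). Of these Tgfb1i1 was called by DESeq2 and Net1 in the fit of the 12 libraries alone with the choroid plexus score as covariate. The interferon-inducible genes Ifit3 and Gbp3 are given with their list.

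On the lower side 0 autosomal genes passed by edgeR, with adjusted p from 0.470 to 0.921 for the 10 smallest. Pcdhb6, a clustered protocadherin with close relatives that the counting can split, had a change of -0.51 ± 0.13 SE and was called by limma with sample quality weights. Unc13c, which primes synaptic vesicles, stood at 33.2 to 52.8 CPM in XXM (median 45.0) and 23.5 to 37.1 in XYM (median 27.8), a change of -0.54 ± 0.15 SE (adjusted p = 0.752). Pygm, the glycogen phosphorylase first described in muscle, did not overlap between groups, at 31.2 to 36.7 CPM in XXM and 25.2 to 30.9 in XYM, a change of -0.29 ± 0.08 SE (adjusted p = 0.835). The rest were Mrps6, a protein of the mitochondrial ribosome (-0.28), Npc2, a lysosomal cholesterol carrier (-0.30), Zfp458 (-0.36), Grb7 (-0.83, from 1.56 to 0.865 CPM at the medians), Tuft1 (-0.52), Tmem248 (-0.15) and Pttg1ip (-0.14).

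Interferon-inducible genes, many of them antiviral effectors and guanylate-binding proteins, gave 0 calls among 38 measured. At any size 30 were higher and 8 lower in XYM, where 48.9% of all genes were higher, and the median was 0.12. The count was lower without 1 library. XYM replicate 1 had a list score (mean log2 CPM) of 2.78 against 2.05 to 2.23 in the other XYM libraries, and 25 of the 38 genes had their highest level of the 12 libraries there. The same library was rich in choroid plexus RNA, with a score of 5.98 against at most 2.82 in the other XYM libraries. Without XYM replicate 1, 24 of 38 were higher (50.2% of all genes) and the median was 0.05. The median was 0.23 without the 7 rich libraries and 0.31 with the choroid plexus score as covariate (0.34 in the fit of the 12 libraries alone). Ifit3 had the smallest p of the list, at 5.94 to 9.12 CPM in XXM (median 7.19) and 8.81 to 19.5 in XYM (median 11.7), a change of 0.77 ± 0.18 SE (edgeR adjusted p = 0.185) that was called by DESeq2 and with the choroid plexus score as covariate. Gbp3 had a change of 0.46 ± 0.13 SE (adjusted p = 0.635). Both belong to families whose reads the counting can split.

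Genes of MHC class I, which present peptides at the cell surface, gave no call. Of 17 measured 0 were called, 12 were higher and 5 lower, and the median was 0.06. Without XYM replicate 1 the median was -0.03 and 7 of 17 were higher, while the median was 0.18 with the choroid plexus score as covariate (0.23 in the fit of the 12 libraries alone) and 0.01 without the 7 rich libraries. Nlrc5, a transcriptional activator of these genes, stood at 0.608 to 1.48 CPM in XXM (median 0.963) and 1.02 to 2.75 in XYM (median 1.51). Its change of 0.79 ± 0.27 SE did not pass (edgeR adjusted p = 0.921). With the choroid plexus score as covariate it was called in the fit of all 23 libraries but not in that of the 12 alone. H2-K1 had a change of 0.18 ± 0.13 SE (adjusted p = 0.958) and is uncertain because of its near-identical relatives.

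**Figure D4:**
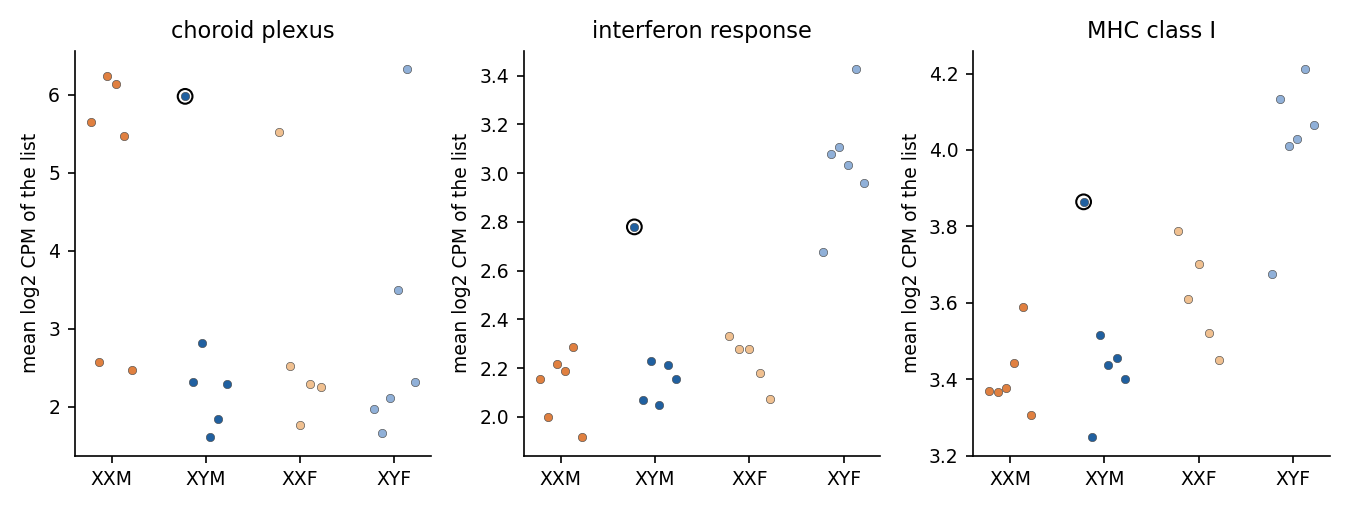
Mean log2 CPM of the members of 3 gene lists (y axes) in each library of the 4 groups, with XYM replicate 1 ringed. Choroid plexus genes are high in 4 XXM libraries and 1 XYM library, and the ringed library is also the highest XYM library for interferon genes at 2.78.

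Markers of brain cell types gave 0 calls by edgeR. In tissue samples of mixed cells, fewer cells of a type and less RNA per cell cannot be told apart. All 14 choroid plexus genes were lower in XYM at any size, with a median of -1.54 and a smallest adjusted p of 0.930, their high values lying in the 5 libraries named above. Their summed level was 419 to 4955 CPM in XXM and 324 to 4810 in XYM. Astrocyte markers were lower in 13 of 13 with a median of -0.05, and oligodendrocyte markers in 16 of 17 with a median of -0.06. Of all genes 51.1% were lower. No member of these lists had an unadjusted p under 0.05 by edgeR. Astrocyte scores (mean log2 CPM) of the libraries overlapped, from 7.45 to 7.64 in XXM and from 7.42 to 7.64 in XYM. Microglial markers were lower in 13 of 20 with a median of -0.02, endothelial markers in 10 of 13 (-0.03), mural cell markers in 5 of 13 (median 0.06) and meningeal fibroblast markers in 9 of 12 (-0.08). Hippocampal neuron and subfield markers were higher in 12 of 20 with a median of 0.03. Among them Wfs1, which marks the field CA1, stood at 119 to 168 CPM in XXM (median 153) and 85.2 to 159 in XYM (median 119), a change of -0.30 ± 0.11 SE (adjusted p = 0.921). GABA neuron markers had a median of -0.06 (10 genes) and glutamate receptors and scaffolds one of 0.03 (20 genes).

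The same XY against XX comparison in mice with ovaries used other animals and shares with this one only the estimate of the spread. There 40 genes were called (0.291%), 26 of them autosomal (0.196%), 10 X-linked and 4 Y-linked. Of the 16 genes called with testes 15 were called with ovaries, all in the same direction, which is 93.8% of the 16 and 37.5% of the 40. The exception was Ddx3x, at -0.34 with testes and -0.23 with ovaries. The X-linked gene called only with ovaries was Kdm5c, at -0.41 there and -0.30 with testes. Mylk rose by 0.51 and Cnn2 by 0.77 with ovaries, against 0.50 and 0.71 with testes. The test of the difference between the gonads (interaction) called 0 of 13766 genes by edgeR, by DESeq2 and by limma's voom, with 444, 452 and 415 genes at an unadjusted p under 0.05. In the distal block the interaction was -0.37 for Tlr7 and -0.30 for Prps2, each with an edgeR adjusted p of 0.999.

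Of the 26 autosomal genes called with ovaries, 14 were on the interferon response list and 3 on the MHC class I list. These lists held 38 and 17 of the 13766 genes. They were chosen with earlier results of these data known, so this overlap is no test. In mice with testes 24 of the 26 were higher in XYM at any size, where 48.9% of autosomal genes were. Of the 26, 9 had an unadjusted p under 0.05 by edgeR (5.15% of autosomal genes) and 2 were called (0.0151%), Mylk and Cnn2. The median of the 26 was 0.29 with testes and 0.95 with ovaries. The genes were selected in the mice with ovaries, so the smaller size with testes is no test. Oasl2, an antiviral gene, was at 1.85 with ovaries and 0.52 with testes, and Ifit1 at 1.61 and 0.45. Without XYM replicate 1 the interaction called 3 genes by edgeR, each with a lower log2 fold change of XY over XX with testes than with ovaries. They were Oasl2 at -1.65 (adjusted p = 0.0280), Gbp6 at -1.77 (adjusted p = 0.0280) and Bst2 at -2.01 (adjusted p = 0.0358). With testes they changed by 0.20, -0.17 and -0.88 in that fit, none of them called. With ovaries they changed by 1.85, 1.60 and 1.14 in the fit of all 23 libraries. Of these Gbp6 stood at 6.73 CPM in XYM replicate 1 and at 2.12 to 3.98 in the other XYM libraries, and at 2.48 to 3.63 in XXM. Outside X and Y, Tm7sf2 had an interaction of 0.52 with an unadjusted p of 9.73e-05 by edgeR, higher in XYM with testes and at -0.17 with ovaries, and it did not pass the adjustment.

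**Figure D5:**
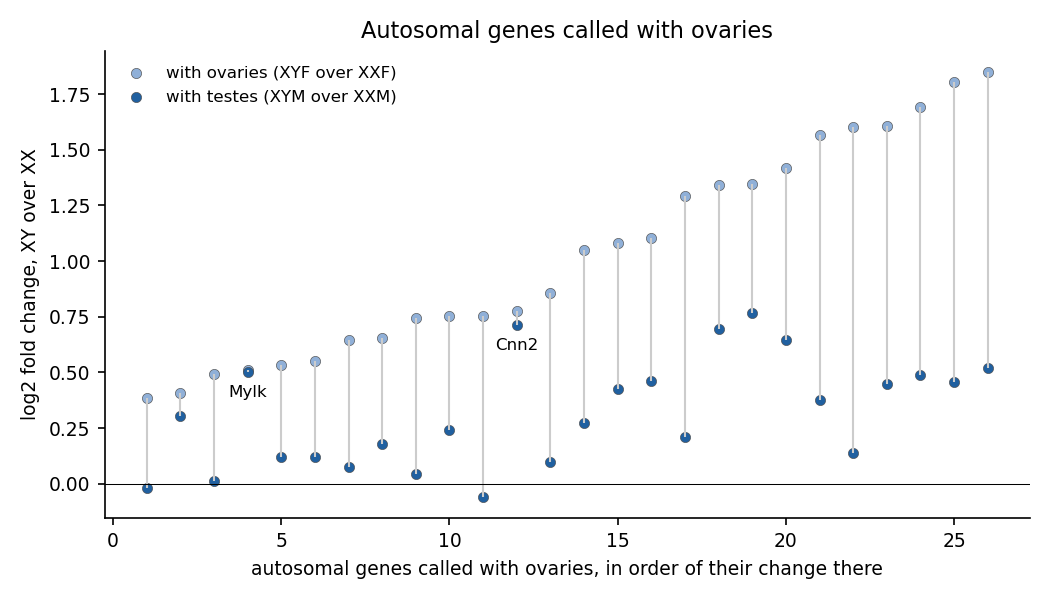
Log2 fold change of XY over XX (y axis) with ovaries and with testes for the 26 autosomal genes called with ovaries, ordered on the x axis by their value with ovaries. Mylk and Cnn2 have nearly the same value in both, and the genes were chosen by their value with ovaries.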

How the data were processed

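Per the labels' protocols, RNA of frozen hippocampus was depleted of ribosomal RNA and strand-specific libraries were made from 500 ng. The authors deposited 1 table of estimated counts, called raw values per the file headers, and normalized values on a log2 scale. Per the file headers, genes had to reach 20 in 100% of samples of at least 1 of the 4 conditions, so genes below that were not analysed here. The submitters' processing notes name mm10 and DESeq. No source used here names the aligner, the counter or the use of strand. Of 12948 records matched to GENCODE by name and chromosome, 12945 overlapped the gene of that name (GRCm38).

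Groups came from the labels and replicate numbers only name libraries. Estimated counts were rounded, scaled by the trimmed mean of M-values and tested with edgeR (version 4.0.16) in R (version 4.3.3), with 1 mean per group and 1 spread over all 23 libraries, Benjamini-Hochberg adjustment over 13766 genes and an adjusted p under 0.05. The SE was taken as the size of the log2 fold change divided by the root of F. CPM uses scaled totals, and log2 CPM a prior count of 2. No libraries of a group agreed within sampling noise. The labels give an animal per library, so p-values measure the spread between animals. Named were the sex chromosome lists, all called genes, the autosomal genes of smallest p (10 per direction) and the 2 of smallest p per list and of the interaction. Single values of some genes are not reported here. Members and lists were chosen with earlier results of these data known. Alternatives used DESeq2 (version 1.42.0), limma (version 3.58.1), other scalings, filters and covariates, and libraries left out. The steps were tested on simulated data.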

Additional observations from a re-analysis of the deposited data

Results flagged for a closer look

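The 78 groups of 6 values examined were those of the called genes other than Xist and the Y-linked genes, and of the list scores. Of these groups 8 had 1 library far from the other 5, and chance alone gives about 1 in 20. XXM replicate 1 had Cnn2 at 4.24 CPM, below the 6.33 to 6.99 of the other XXM libraries, and XXM replicate 6 had Kdm6a at 51.6 CPM, below 56.5 to 58.9.

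XXM replicate 5 had the highest score (mean log2 CPM) of the actin cytoskeleton and SRF target list, 6.03 against 5.90 to 5.92, and of the mural cell list, 3.402 against 3.004 to 3.11. XXM replicate 2 had the lowest Tlr7 signalling score, 3.64 against 3.72 to 3.77. XYM replicate 3 had the highest oligodendrocyte score, 6.95 against 6.68 to 6.78.

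XYM replicate 1 stood apart in 2 lists, choroid plexus at 5.98 against 1.61 to 2.82 and interferon response at 2.78 against 2.05 to 2.23.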

How the results depend on the processing

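Without the 7 libraries rich in choroid plexus RNA, 10 genes were called (8 higher, 2 lower), 0 autosomal and 6 X-linked, with 2 XXM libraries left. The 2 autosomal calls became 5 with sample quality weights in limma's voom, 4 with the choroid plexus score as covariate and 6 with DESeq2, and the cause was not tested. Other settings gave 15 to 22 calls in all. Leaving out 1 XYM or XXM library gave 15 to 17 calls, 2 to 2 autosomal, 9 to 11 X-linked and 4 to 4 Y-linked. The interaction then had 0 to 3 calls (3 without XYM replicate 1) and the comparison with ovaries 40 to 51. No XXF or XYF library was left out singly. Whether the counts for the interaction and with ovaries depend on 1 such library was not tested. With merged exons as length the summed pairs turned, to -0.24 for Eif2s3x with Eif2s3y and -0.00439 for Kdm5c with Kdm5d. Over 37 named genes and 24 settings, 847 of 887 values kept side and direction, 22 lost the call, 18 gained it and 0 turned. DESeq2 gave no adjusted p for Xist. No paired analysis was possible because the labels number animals, not pairs. Genes near 0 in a group, such as the Y-linked genes in XXM, have fold changes that depend on the prior count.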

Other observations

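Receptors of steroid hormones were compared because both groups have testes. Of 5 measured (of 7 listed) 0 were called by edgeR. Esr1, an oestrogen receptor, had a change of 0.26 ± 0.22 SE on the log2 scale (edgeR adjusted p = 0.966) and Nr3c1, the glucocorticoid receptor, one of -0.10 ± 0.05 SE (adjusted p = 0.930).

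Genes of energy use, rhythm and neuronal activity also gave 0 calls by edgeR. The median was -0.00 over 20 genes of oxidative phosphorylation, 0.00 over 14 circadian clock genes, -0.08 over 14 immediate early genes and -0.01 over 12 genes of amyloid, tau and Apoe. Per3, a clock gene, stood at 39.9 to 63.2 CPM in XXM (median 52.8) and 47.7 to 76.4 in XYM (median 62.8), a change of 0.24 ± 0.11 SE (adjusted p = 0.930). Clu, which encodes the chaperone clusterin, had a change of -0.13 ± 0.06 SE (adjusted p = 0.930). Igf2, a growth factor made in meninges and choroid plexus, ranged from 36.2 to 219 CPM in XXM and from 23.9 to 191 in XYM, a change of -1.16 ± 0.59 SE (adjusted p = 0.930).

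Markers of tissues next to the hippocampus gave 0 calls as well, with medians of -0.11 over 11 thalamus genes, -0.15 over 8 ependyma genes and -0.13 over 3 blood genes.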
